A study of Xenopus laevis with 15 samples.

Results

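The genes described here are ctgf (Xelaev18003784m.g), which encodes connective tissue growth factor, and tll1-like.1 (Xelaev18003929m.g), whose symbol places it with the tolloid-like proteases. They are the 2 gene models, of 45099 in the deposited table, whose symbol equals either name, and both passed the filter of a mean of at least 1 FPKM (fragment counts scaled for the length of the gene model and the size of the library) that left 13192 gene models for testing. Both were selected on their FPKM values in these same libraries, with the differences between groups already known. Their own levels and differences are therefore given as a description, with no p-value.

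The samples were whole Xenopus laevis embryos exposed from developmental stage 6 until stage 18, the neurula period, in 3 groups of 5 RNA libraries. The vehicle group received 0.1% ethanol, the low-dose group 10 nM NRX204647, a dose the labels call specific for retinoic acid receptor gamma, and the high-dose group 1 µM NRX204647, a dose the labels describe as activating receptors alpha, beta and gamma. Embryos of all groups came from eggs fertilized in vitro, and the design text speaks of single-clutch replicates. Each library is an aliquot of 5 embryos. The protocol describes a dish of 25 embryos divided into 5 aliquots, so an effect of the dish and an effect of the dose cannot be told apart, and the spread between libraries is a spread between aliquots. In whole-embryo RNA, fewer cells of a type and less RNA per cell cannot be told apart either.

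Ctgf is a secreted matricellular protein of the CCN family. It binds integrins and heparan sulfate proteoglycans at the cell surface, and work in Xenopus embryos has described its binding to bone morphogenetic proteins (BMPs), transforming growth factor beta and the Wnt co-receptor Lrp6. In mammalian cells its gene is a well-known target of transforming growth factor beta and of the Hippo effector Yap. Tolloid proteases are secreted metalloproteases that cut the BMP antagonist Chordin and so release BMP ligands, and they also trim the precursors of fibrillar collagens, biglycan and lysyl oxidase. Ctgf and the tolloids are thus both secreted proteins with ties to the matrix and to BMPs.

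Transcripts of ctgf were higher at 1 µM than in either other group. Its levels were 1.91, 2.01, 1.25, 1.29 and 1.74 FPKM in the vehicle libraries. At 10 nM they were 1.72, 2.14, 1.76, 2.51 and 0.998 FPKM, and at 1 µM 2.01, 3.22, 4.63, 3.91 and 3.21 FPKM. The 10 nM values spread to both sides of the vehicle values. The 1 µM values all lay above the vehicle values, though replicate 1 did so by only 0.00127 FPKM, and the other 4 stood above every library of the other groups. The group levels were 1.64 ± 0.350 FPKM with vehicle, 1.83 ± 0.563 FPKM at 10 nM and 3.40 ± 0.972 FPKM at 1 µM (SD, n = 5 each). In this order of levels, vehicle and 10 nM did not differ beyond their spread.

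Transcripts of tll1-like.1 went the other way, with lower levels at each dose. The vehicle libraries held 2.96, 3.24, 2.35, 3.02 and 2.36 FPKM. The 10 nM libraries held 2.36, 1.83, 1.98, 1.84 and 2.15 FPKM, and the 1 µM libraries 1.19, 0.924, 1.06, 1.01 and 0.900 FPKM. The 1 µM libraries were the lowest of all 15 and did not overlap with either other group. The 10 nM libraries lay below the vehicle libraries except that replicate 1 was just above the lowest vehicle library, so 1 of 25 pairs of libraries ran against the order. The group levels were 2.79 ± 0.409 FPKM with vehicle, 2.03 ± 0.225 FPKM at 10 nM and 1.02 ± 0.115 FPKM at 1 µM (SD, n = 5 each).

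**Figure D1:**
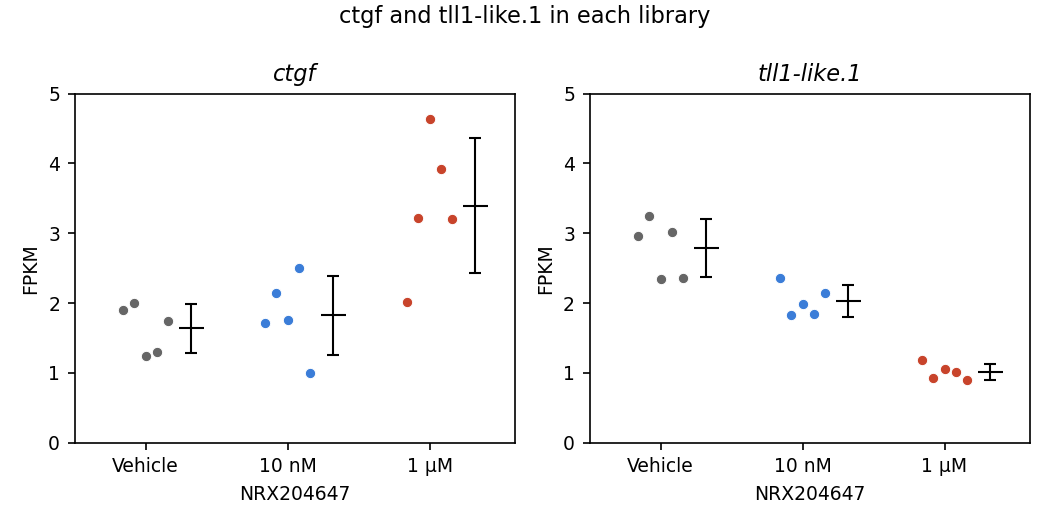
FPKM of ctgf (left) and tll1-like.1 (right) in each of the 5 libraries per group, with vehicle, 10 nM and 1 µM NRX204647 along the x axis; points are libraries, horizontal marks are group means and bars are SDs. The ctgf points are high at 1 µM, from 2.01 to 4.63 FPKM, whereas the tll1-like.1 points step down to 0.900 to 1.19 FPKM at 1 µM.

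The comparison of 10 nM with vehicle addresses the dose described as gamma-specific. Mean ctgf was 1.11 times its vehicle level at 10 nM, with a log2 difference of 0.08 ± 0.17 (SE). The differences are coefficients of a limma fit to log2(FPKM + 1), a scale that understates the changes of low genes such as these. Mean tll1-like.1 at 10 nM was 0.729 times its vehicle level, with a log2 difference of -0.32 ± 0.09. At a Benjamini-Hochberg adjusted p under 0.05, tll1-like.1 was called lower and ctgf was not called, which makes 1 of the 2 genes beside 23.3% of all tested gene models, with 10.3% called lower. The tll1-like.1 call was lost, at a log2 difference of -0.24, in a fit without the 5 shallowest libraries (relative depth under 0.4), a fit in which 3 libraries at 10 nM and 2 with vehicle remained. Libraries of the groups overlapped for both genes, against 14% of tested gene models whose libraries did not overlap.

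At 1 µM, which the labels tie to all the receptor subtypes, both genes were called, in opposite directions. Mean ctgf was 2.07 times its vehicle level, with a log2 difference of 0.72 ± 0.17, and 86.2% of the tested gene models had a smaller or more negative difference. Mean tll1-like.1 was 2.75-fold lower at 1 µM than with vehicle, with a log2 difference of -0.91 ± 0.09, and 2.95% of the tested gene models lay below it. Both genes were called in this comparison, beside 45.6% of all tested gene models, with 28.9% called higher and 16.6% lower. The 1 µM and vehicle libraries did not overlap for either gene, as for 32.1% of the tested gene models.

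Between the doses, ctgf was 1.86 times as high at 1 µM as at 10 nM, with a log2 difference of 0.63 ± 0.17. The libraries overlapped, because 1 µM replicate 1 at 2.01 FPKM lay below 10 nM replicates 2 and 4. Mean tll1-like.1 at 1 µM was 0.499 times its 10 nM level, with a log2 difference of -0.59 ± 0.09 and no overlap, where 18.5% of the tested gene models had no overlap in either direction. Both genes were called here too, beside 23.8% of all tested gene models, with 16.1% higher and 7.72% lower. Both dose comparisons use the same vehicle libraries, so their values are not independent of each other.

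**Figure D2:**
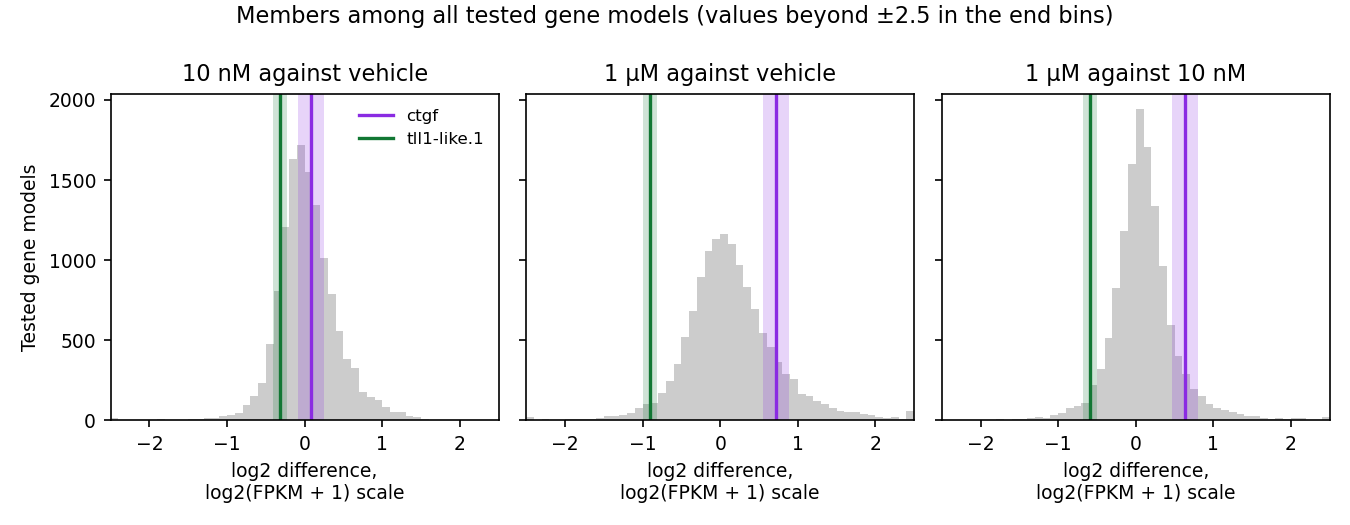
Histograms of the log2 difference, on the log2(FPKM + 1) scale, of the 13192 tested gene models in each comparison, with coloured lines for ctgf and tll1-like.1 and bands of 1 SE. At 1 µM against vehicle the lines stand at 0.72 for ctgf and -0.91 for tll1-like.1, and at 10 nM against vehicle that of ctgf stands at 0.08, near the middle of the histogram.

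The ratio of ctgf to tll1-like.1 within a library is free of any scaling between libraries. It was 0.643, 0.619, 0.532, 0.428 and 0.737 in the vehicle libraries. At 10 nM it was 0.727, 1.17, 0.889, 1.36 and 0.464, and at 1 µM 1.69, 3.49, 4.38, 3.88 and 3.56. The listed FPKM of tll1-like.1 was thus the higher in every vehicle library, and that of ctgf in every 1 µM library. Reads of near-identical copies could be split between gene models, so this order need not be that of the transcripts. At 10 nM the order differed between libraries, with ctgf the higher in replicates 2 and 4 alone. The mean log2 ratio was -0.78 ± 0.30 with vehicle, -0.21 ± 0.61 at 10 nM and 1.70 ± 0.54 at 1 µM (SD, n = 5 each). The 1 µM ratios lay above all others, with a mean difference of 2.48 from vehicle and of 1.91 from 10 nM on the log2 scale. Both genes were selected with their differences known, and the ratio only joins those differences. Its separation is therefore a description and no separate evidence. The 10 nM ratios overlapped with those of vehicle, at a mean difference of 0.57.

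**Figure D3:**
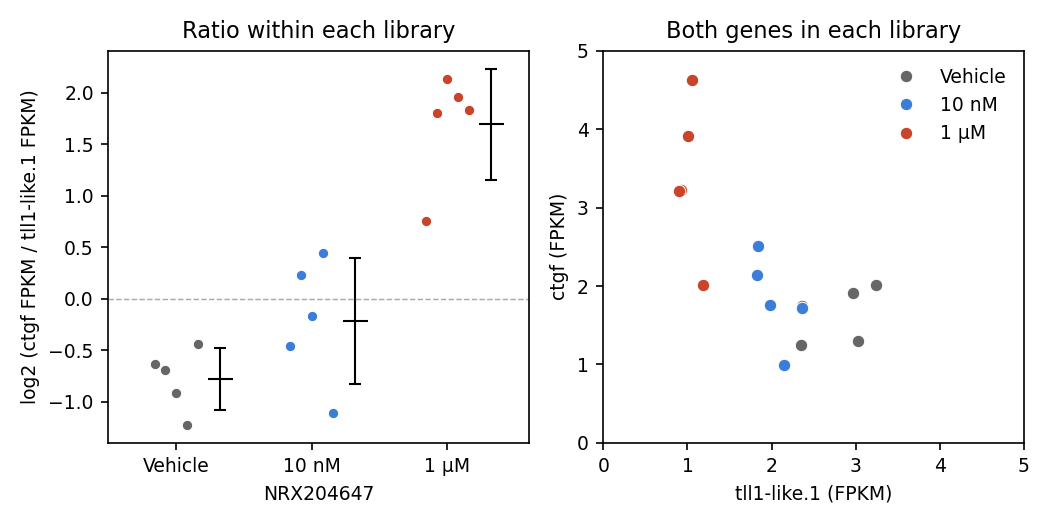
Left, log2 ratio of ctgf FPKM to tll1-like.1 FPKM in each library, with group means and SDs; right, ctgf FPKM against tll1-like.1 FPKM, 1 point per library. All 1 µM ratios are above 0 (from 0.76 to 2.13) and all vehicle ratios are below 0 (from -1.22 to -0.44), while the 10 nM points lie on both sides.

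Ranks within a library need no scaling step, and they again ran highest for ctgf and lowest for tll1-like.1 at 1 µM. The overlaps between groups were not the same as by FPKM. Ctgf stood at percentile 75.3 to 80.7 of the 45099 gene models in the vehicle libraries, 71.9 to 84.9 at 10 nM and 80.0 to 89.6 at 1 µM. The percentile of tll1-like.1 was 84.0 to 86.7 with vehicle, 79.7 to 82.8 at 10 nM and 68.6 to 72.5 at 1 µM. By rank, the groups of tll1-like.1 did not overlap at any step, including 10 nM against vehicle, where 1 of 25 pairs ran against the order by FPKM. The share of all gene models whose groups separate by rank was not computed. For ctgf the 1 µM and vehicle ranks overlapped, through 1 µM replicate 1.

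The genes also differed in how tightly their libraries agreed. The pooled within-group SD on the log2(FPKM + 1) scale was 0.12 for tll1-like.1 and 0.29 for ctgf, against a median of 0.21 over the tested gene models. The SD of tll1-like.1 was larger than that of 7.94% of them and the SD of ctgf larger than that of 75.5%. This scale shrinks the spread of genes near 1 FPKM, and tll1-like.1 averaged 1.02 FPKM at 1 µM, so these shares also depend on level. Read support, which the steps between FPKM values reveal, was 26 to 81 reads per vehicle library for ctgf, 31 to 65 at 10 nM and 111 to 207 at 1 µM. Counting error alone would give ctgf a coefficient of variation averaging 15.4% with vehicle, 15.5% at 10 nM and 8.23% at 1 µM. The observed coefficients were 21.3%, 30.8% and 28.6% in the same order of groups, so among its groups ctgf exceeded counting error by the widest margin at 1 µM. For tll1-like.1 the recovered units numbered 600 to 3078, and 13 of 15 were multiples of 3. Its unit may thus be a fraction of a read, and if 3 units make a read its support would be 200 to 1026 reads. Most of the unit numbers were also even, so more than 3 units may make a read, and the support would then be lower. Counting error would then average 4.27%, 5.27% and 5.39% for tll1-like.1, in the same order of groups. Its observed coefficients were 14.7%, 11.1% and 11.3%, above the expected ones if 3 units make a read. With more units to a read the expected coefficients would be larger. The number of units in a read was not settled, so whether tll1-like.1 scattered beyond counting error was not settled either. The expected coefficients cover counting error only, since amplified reads are not independent molecules.

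Over the series, relative depth averaged 0.535 ± 0.259 with vehicle, 0.455 ± 0.143 at 10 nM and 0.839 ± 0.189 at 1 µM of the deepest library (SD, n = 5 each). The libraries held 2574801 to 10541133 recovered units in tested gene models, and a unit can be a fraction of a read. A single gene model held 23.6% to 45.6% of the summed FPKM in the vehicle libraries, 17.6% to 32.9% at 10 nM and 14.5% to 26.2% at 1 µM. These ranges overlapped, though both of their ends fell in that order. After scaling to a common total without that gene model, ctgf differed by 0.55 and tll1-like.1 by -1.07 at 1 µM against vehicle on the log2 scale. Of 40 marker symbols for the tissues of a neurula, 4 were in the table, sox2, sox9, grhl3 and chrnd. Only 712 of the 45099 gene models carried a symbol that is not a placeholder. A symbol that was not found may thus belong to a gene model without one. By gene, the neural plate marker sox2 had 3.30 ± 0.934 FPKM with vehicle, 0.927 ± 0.822 at 10 nM and 1.66 ± 0.610 at 1 µM (SD, n = 5 each), and the neural crest marker sox9 had 2.70 ± 0.396, 2.09 ± 0.631 and 5.86 ± 0.753 FPKM in that order. The epidermal marker grhl3 had 18.9 ± 1.35, 23.7 ± 0.956 and 15.1 ± 1.12 FPKM, and the muscle marker chrnd 7.81 ± 1.81, 6.87 ± 0.422 and 3.30 ± 0.705 FPKM. At 1 µM the means of sox2, grhl3 and chrnd were lower than with vehicle, and that of sox9 was higher. These markers of different tissues thus did not all move in the same direction. Their summed level was 31.1 to 36.7 FPKM with vehicle, 32.2 to 35.7 FPKM at 10 nM and 23.3 to 28.7 FPKM at 1 µM, and sox2 was listed at 0 in 1 library at 10 nM. The part of depth and of tissue makeup in the differences of ctgf and tll1-like.1 was not tested.

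Of 273 symbols in lists for the CCN family, tolloids, the Chordin-BMP axis, matrix proteins, other metalloproteases and the Hippo and transforming growth factor beta inputs of ctgf, 13 besides these genes were in the table and 6 of those were tested. Only 314 of the 13192 tested gene models carried a symbol that is not a placeholder. Genes of the lists that were not found may thus be among the gene models without a symbol. From the CCN and tolloid lists the symbols found were ctgf, tll1-like.1 and pcolce. At 1 µM against vehicle 4 of the 6 were called higher and none lower, with a median log2 difference of 0.40 against 0.09 over all tested gene models, of which 28.9% were called higher and 16.6% lower. Of the 4, pcolce passed the filter with the help of its treated groups, which favours a higher call. The calls of bgn and skil were lost in some alternative settings. At 10 nM against vehicle 2 of the 6 were higher and none was lower (median 0.10 against 0.01, with 13% of all tested gene models higher). Between the doses 2 were higher at 1 µM and none lower (median 0.27 against 0.08, with 16.1% of all higher). The lists were chosen with earlier results of these data known, so these counts are a description.

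Closest to the tolloid protease by function is pcolce, the procollagen C-proteinase enhancer, a secreted protein that speeds the cleavage of procollagen by tolloid enzymes. Its level was 1.07, 0.818, 0.428, 1.11 and 0.536 FPKM with vehicle, 1.37, 0.985, 1.85, 1.10 and 0.395 FPKM at 10 nM, and 1.94, 2.04, 1.83, 1.43 and 1.83 FPKM at 1 µM. All 1 µM libraries were above all vehicle libraries, while the 10 nM libraries scattered across both ranges. It rose at 1 µM, by a log2 difference of 0.66 ± 0.17 from vehicle (SE, limma adjusted p = 0.00432, or 0.00941 with no filter). Its vehicle mean of 0.794 FPKM was itself below the filter, which pcolce passed with the help of its treated groups. At 10 nM the log2 difference was 0.23 ± 0.17 (limma adjusted p = 0.331). The enhancer and tll1-like.1 therefore had opposite directions at 1 µM. The pcolce values rested on as few as 5 recovered units in a vehicle library.

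A further tolloid substrate gene is bgn, for the small matrix proteoglycan biglycan. It stood at 1.28 ± 0.326 FPKM with vehicle, 1.11 ± 0.523 FPKM at 10 nM and 2.17 ± 0.485 FPKM at 1 µM (SD, n = 5 each). It was called higher at 1 µM than at 10 nM, by 0.61 ± 0.16 (SE, limma adjusted p = 0.00988), and higher than with vehicle by 0.47 ± 0.16 (limma adjusted p = 0.0227). The call against vehicle was lost in 7 of 28 alternative settings (limma adjusted p from 0.00369 to 0.128 over them all). These were the 3 other scalings of the FPKM values (limma adjusted p of 0.0649 with median-of-ratios, 0.0672 with quantile normalization and 0.128 without the top gene model) and the fits without vehicle replicates 1 or 5 or 1 µM replicates 2 or 3. Its libraries at 1 µM and with vehicle overlapped, since the lowest at 1 µM held 1.65 FPKM and the highest with vehicle 1.70 FPKM.

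Among other matrix genes, p4hb encodes protein disulfide isomerase, which is also the beta subunit of collagen prolyl hydroxylase. It rose in each comparison without overlap between groups, with 6.36 ± 0.778 FPKM with vehicle, 12.9 ± 2.29 FPKM at 10 nM and 21.9 ± 5.47 FPKM at 1 µM (SD, n = 5 each). In 10 nM embryos its log2 difference from vehicle was 0.91 ± 0.16 (SE, limma adjusted p = 0.00147). In 1 µM embryos the difference was 1.61 ± 0.16 (limma adjusted p = 1.33e-06). Between the doses it was 0.70 ± 0.16 (limma adjusted p = 0.00491), and its 10 nM call against vehicle missed the threshold without the shallow libraries (0.87, limma adjusted p = 0.0647, the highest of its alternatives, whose lowest was 0.000228). The matrix glycoprotein gene emilin3, from a family of elastin-associated proteins, stood at 9.28 ± 1.03 FPKM with vehicle, 9.04 ± 1.44 FPKM at 10 nM and 8.11 ± 0.546 FPKM at 1 µM. Its log2 difference at 1 µM against vehicle was -0.17 ± 0.10 (SE, limma adjusted p = 0.187). That difference passed in 4 of 29 alternatives, the 3 other scalings and voom, at -0.40 to -0.27 (limma adjusted p from 0.00468 to 0.596 over all alternatives).

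On the signalling side, the type I BMP receptor gene bmpr1a was not called in any comparison. It stood at 3.29 ± 0.451 FPKM with vehicle, 2.66 ± 0.406 FPKM at 10 nM and 2.92 ± 0.132 FPKM at 1 µM (SD, n = 5 each), with a log2 difference at 10 nM of -0.23 ± 0.09 (SE, limma adjusted p = 0.0772). After scaling without the most abundant gene model it was called lower at both doses, at -0.36 for 10 nM (limma adjusted p = 0.00912, from 0.00912 to 0.180 over its alternatives) and -0.32 for 1 µM (limma adjusted p = 0.0112, from 0.0112 to 0.542). Quantile normalization also called it lower at 1 µM, at -0.24 (limma adjusted p = 0.0411). The gene skil, for a repressor of Smad proteins downstream of transforming growth factor beta, was called higher at both doses, with 1.07 ± 0.231 FPKM with vehicle, 1.66 ± 0.224 FPKM at 10 nM and 1.59 ± 0.309 FPKM at 1 µM (SD, n = 5 each). The log2 differences of skil from vehicle were 0.36 ± 0.10 (SE, limma adjusted p = 0.0216) in 10 nM embryos and 0.32 ± 0.10 (limma adjusted p = 0.0206) in 1 µM embryos. The 10 nM call was lost in 3 of 28 alternatives (without 10 nM replicate 2, vehicle replicate 5 or the shallow libraries), with limma adjusted p up to 0.116. The 1 µM call was lost in 5, with the highest limma adjusted p, 0.117, after scaling without the most abundant gene model. It was also lost without the shallow libraries, vehicle replicate 5 or 1 µM replicates 1 or 3.

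The remaining 7 genes of the lists were below the filter. The BMP antagonist gene nog, for Noggin, had 0.560 ± 0.224 FPKM with vehicle, 0.661 ± 0.554 FPKM at 10 nM and 1.51 ± 0.490 FPKM at 1 µM (SD, n = 5 each), from 3 recovered units upwards. With a filter at 0.5 FPKM, chosen after its values were seen, its log2 difference at 1 µM was 0.67 ± 0.19 from vehicle (SE, limma adjusted p = 0.0113, or 0.0226 with no filter). The collagen-modifying lysyl hydroxylase gene plod3 had 0.662 ± 0.184 FPKM with vehicle, 0.497 ± 0.129 FPKM at 10 nM and 0.610 ± 0.259 FPKM at 1 µM. The genes gdf3, col12a1, spock3 and has1 had means of 0.00303 to 0.164 FPKM over the 15 libraries.

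**Figure D4:**
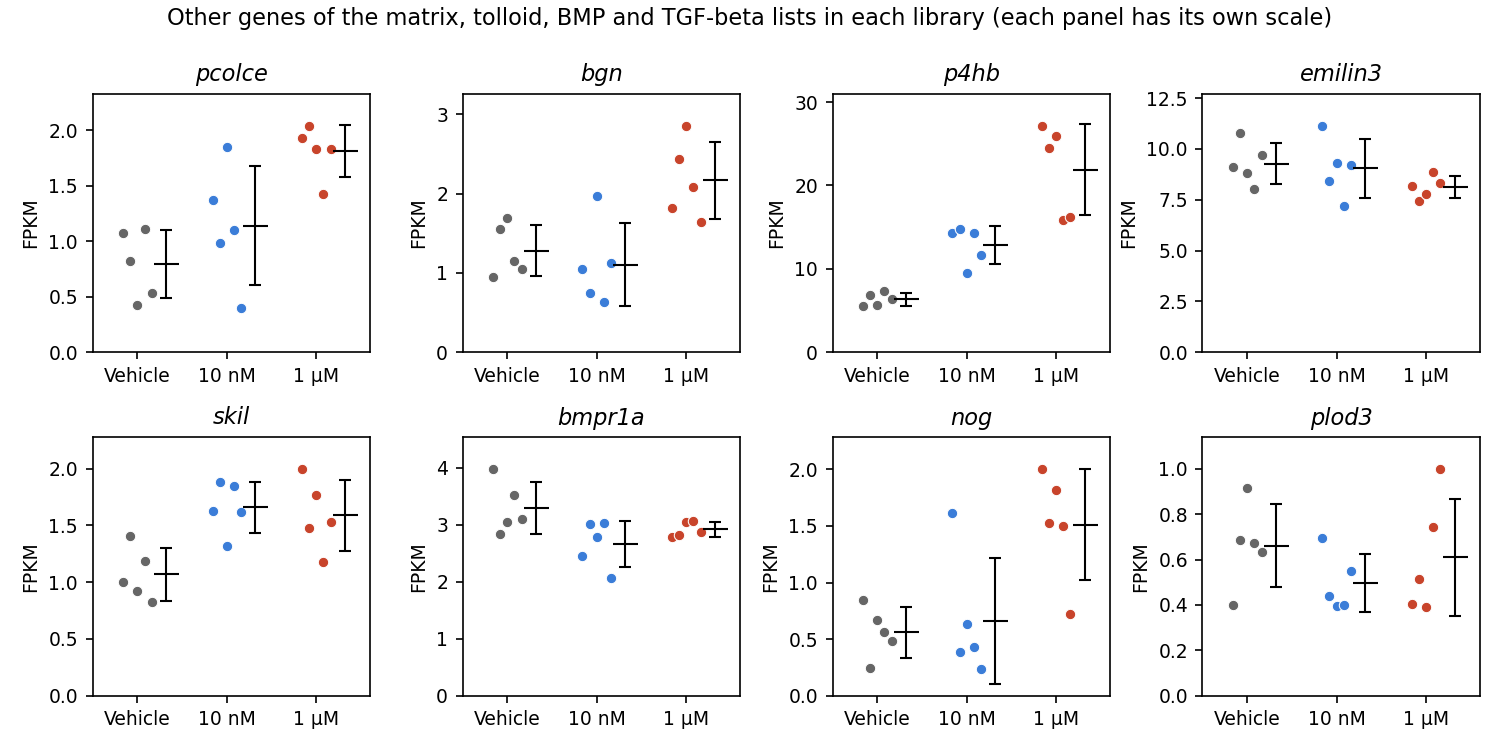
FPKM per library of 8 other genes of the lists, by group, with group means and SDs; each panel has its own y axis, from 0. pcolce, p4hb and nog have their highest means at 1 µM (1.81, 21.9 and 1.51 FPKM), while emilin3 and bmpr1a keep overlapping groups.

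The tested gene models with a symbol whose profiles were most like that of ctgf were found from the root-mean-square difference between profiles of log2(FPKM + 1) over the 15 libraries, each centred on its own mean. For ctgf, whose own root-mean-square deviation from its mean was 0.41, the closest was nr2f6, an orphan nuclear receptor gene, at 0.26. Its level was 2.45 ± 0.584 FPKM with vehicle, 2.54 ± 0.462 FPKM at 10 nM and 4.14 ± 0.302 FPKM at 1 µM (SD, n = 5 each), so its mean, like that of ctgf, was close to vehicle at 10 nM and highest at 1 µM. The next 4 were ube2r2, a ubiquitin-conjugating enzyme gene, fam129b, map1lc3b, which encodes an autophagosome protein, and samd8, at 0.26 to 0.27. Over all tested gene models, 125 without such a symbol were closer than nr2f6.

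For tll1-like.1, with a deviation of 0.39 from its own mean, the closest named profile was that of the histone-binding gene rbbp4, at 0.17. Its level stepped down with dose, at 7.75 ± 1.73 FPKM with vehicle, 5.34 ± 0.788 FPKM at 10 nM and 3.54 ± 0.549 FPKM at 1 µM (SD, n = 5 each). The chromatin remodeller gene smarca5 followed at 0.17, and then ldb3-like.1, related to a Z-disc protein of muscle, the mitotic kinase gene ttk and the potassium channel gene kcnj2, all at 0.20. Of these, ttk also stepped down (7.04 ± 0.609, 5.23 ± 0.480 and 4.32 ± 0.459 FPKM at vehicle, 10 nM and 1 µM), whereas smarca5 stood at 17.4 ± 1.55 FPKM with vehicle, 17.2 ± 0.933 FPKM at 10 nM and 11.4 ± 1.18 FPKM at 1 µM. Over all tested gene models, 75 without such a symbol were closer to tll1-like.1 than rbbp4.

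The directions of tll1-like.1 in all comparisons, and of ctgf at 1 µM, were the same in each of the 28 alternative settings in which they had a value. Many of these settings could not change a direction, because they leave the coefficient as it was. They were the looser filters, the replicate block, the robust prior, the fit of only the groups compared, and fits without a third-group library. The size moved with the pseudocount. At 1 µM against vehicle the log2 difference of tll1-like.1 was -1.37 with a pseudocount of 0.1 and -0.37 with a pseudocount of 5, and that of ctgf 0.98 and 0.33.

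**Figure D5:**
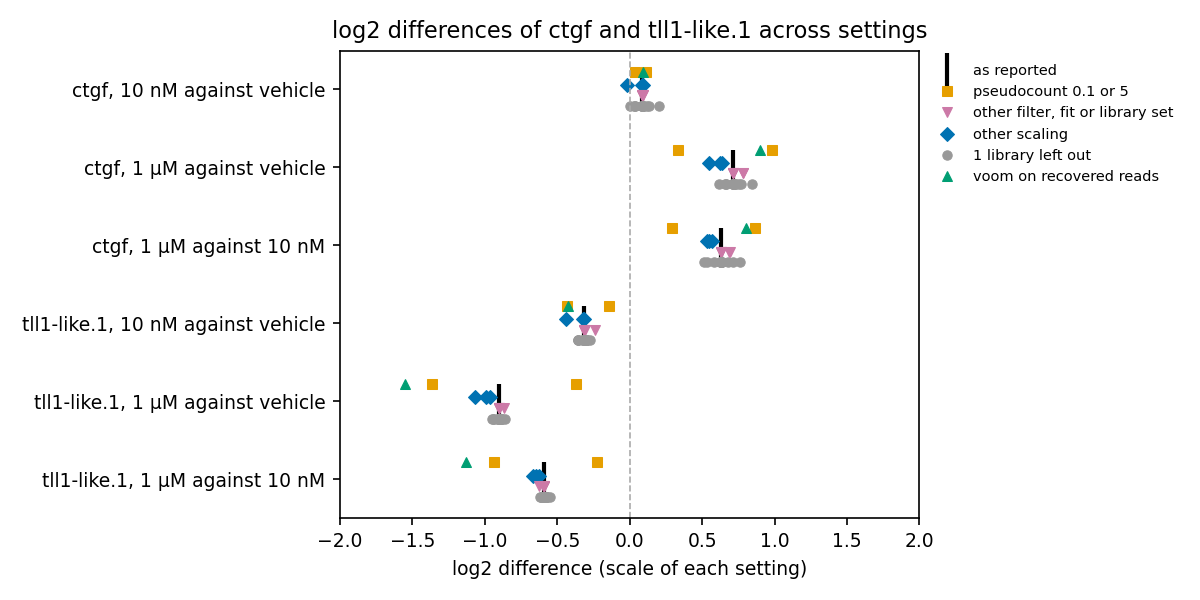
The log2 difference of each gene in each comparison (rows) as reported (black bars) and under each alternative setting (coloured marks; each on the scale of its own setting). The tll1-like.1 marks all lie below 0 and the ctgf marks at 1 µM all lie above it, whereas those of ctgf at 10 nM against vehicle run from -0.02 to 0.20.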

How the data were processed

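The authors deposited 1 table of FPKM values for 45099 gene models and 15 libraries. The submitters' processing notes name TopHat, Bowtie and Cufflinks. For the genome build, the annotation and the tools' versions, a value was not given in the sources used here. Per the labels' protocols, 100 ng of total RNA per library was amplified with the NuGEN Ovation V2 system and sequenced on a SOLiD 5500xl as single 50-nt reads without strand, so reads of overlapping or antisense genes cannot be told apart. No identifier matched the RefSeq table of Xenopus_laevis_v10.1 (0 matched). That table lists ctgf as an older name of 1 gene, ccn2.L, and has 2 genes for tll1, on the L and S subgenomes. Which of these, if any, tll1-like.1 is was not settled, and reads of near-identical copies could be split between gene models, which makes its level uncertain.

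Analysis used log2(FPKM + 1) for gene models averaging 1 FPKM or more. A single limma 3.58.1 fit (R 4.3.3) held the 3 groups, with a mean-variance trend, two-sided tests and Benjamini-Hochberg adjustment over 13192 gene models. The same fit was checked on simulated data. Whole units, taken as reads, were recovered from steps between FPKM values. For 99.2% of the 34147 gene models with 2 or more values above 0, every value was whole within 0.03 units. The unit of each gene model was chosen to make its values whole, so this share does not test the recovery where few values are above 0. No 2 libraries of a group were identical (0 of 30 pairs), and chi-square values of their units were 5.86 to 20.6 per degree of freedom. Taken as reads, the units varied beyond sampling noise, but units that are fractions of a read would inflate these values. Summaries used pandas 2.3.3 under Python 3.11.15.

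The genes described, the lists and the alternatives were chosen with earlier results of these data known. Named besides the members were all genes of the fixed lists in the table and, per member, the 5 tested gene models with a symbol and the most similar profile. Tried as alternatives were other pseudocounts, filters, scalings and fits, library weights, a robust prior, the replicate number as a block, and fits without each single library. A filter at 0.5 FPKM, equal totals computed without the top gene model, voom on recovered reads, and leaving out the shallow libraries were chosen after seeing the data. A gene of the lists that was below the filter is not reported here.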

Additional observations from a re-analysis of the deposited data

Results flagged for a closer look

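Within groups of 5 libraries, 2 of 33 sets of values had an end value set apart from the others by more than Dixon's 95% limit, which chance gives for about 1 group in 20. The log2 ratio of ctgf to tll1-like.1 in 1 µM replicate 1 was 0.76, below the other 4 at 1.80 to 2.13. That library also had the lowest ctgf level and the highest tll1-like.1 level of its group, at 2.01 and 1.19 FPKM. The nog level in 10 nM replicate 1 was 1.62 FPKM, above the other 4 at 0.233 to 0.632 FPKM.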

How the results depend on the processing

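Among 29 alternatives, the number of called gene models moved by over 1.5 times with a filter at a mean of 5 FPKM (1560 at 10 nM against vehicle, 2250 at 1 µM against vehicle and 1047 at 1 µM against 10 nM, as against 3074, 6009 and 3136), which tests fewer gene models and drops both members, and at 10 nM without the shallow libraries (673), which uses fewer samples. There the count of members called was 0 in place of 1. By construction of the scale, the log2 differences moved with the pseudocount. A pseudocount of 5 gave -0.15, -0.37 and -0.23 for tll1-like.1 in the same order of comparisons, and 0.33 and 0.29 for ctgf at 1 µM against vehicle and 10 nM. A pseudocount of 0.1 gave -1.37 and -0.94 for tll1-like.1 at 1 µM against vehicle and 10 nM, and voom, which adds no whole FPKM, gave -1.55 and -1.13. Equal totals computed without the top gene model gave -0.44 at 10 nM and -1.07 at 1 µM against vehicle for tll1-like.1, while the median over all tested gene models shifted to -0.11 from 0.01 at 10 nM and to -0.09 from 0.09 at 1 µM. Higher calls made up 55.8%, 63.5% and 67.5% as reported, 27.7%, 39.0% and 55.1% with those totals, 54.9%, 51.8% and 50.1% with median-of-ratios scaling, and 46.6%, 46.1% and 48.3% with quantile normalization. For ctgf at 10 nM the sign turned in 2 of 28 alternatives, neither with a call, at -0.02 with those totals and at -0.00046 without 10 nM replicate 4. Leaving out 1 library at a time gave 0.62 to 0.84 for ctgf and -0.95 to -0.86 for tll1-like.1 at 1 µM against vehicle, and 2.37 to 2.71 for the log2 ratio of the genes. Of 510 further values for the 6 other tested genes of the lists, 483 kept their side of the threshold, 16 lost a call, 11 gained one and 0 reversed a call. The replicate numbers showed no sign of pairing the libraries. Of 15 same-numbered pairs, 1 had deviations correlated above 0.1, and 3 of 15 libraries correlated best with their own number. Weak correlations cannot show that the libraries were unpaired. With the number as a block, 2933, 5966 and 3051 gene models were called. The weakest library of ctgf held 26 recovered reads, and those of pcolce, bgn and nog 5, 8 and 3 recovered units.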
